A study of Macaca fascicularis with 2 samples.

Results

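The ovarian surface epithelium cells described here were 1240 of the 20967 cells in a single-cell RNA-seq table of fetal ovaries of the cynomolgus monkey, Macaca fascicularis. A cell was counted as surface epithelium when the unique molecular identifiers (UMIs, which count captured RNA molecules) of UPK3B, MSLN, PDZK1IP1 and KRT19 summed to at least 4. At least 2 of the 4 genes had to be detected, the sum had to reach 5 per 10000 UMIs of the cell, and DAZL, a germ cell gene, had to have 0 UMIs. These cells made up 5.91% of the table (exact binomial 95% interval 5.60 to 6.24, which like every interval here covers counting error only). The study profiled all cells of whole ovaries from 2 female fetuses, 1 at embryonic day 84 (E84) and 1 at embryonic day 116 (E116), with no sorting step or experimental agent named in the labels. The ovaries of each fetus were digested with enzymes and made into 1 library with the 10x Genomics 3' kit, so that each stage is 1 animal and 1 library, and the labels name no genetic modification.

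The barcodes in the table end in 1 or in 2, and nothing in the labels ties an ending to E84 or to E116. The endings were therefore treated as technical batches with no stage assigned, and no difference between them is a comparison of stages. Of the surface epithelium cells, 573 had barcodes ending in 1 (5.39% of the 10621 cells with that ending) and 667 had barcodes ending in 2 (6.45% of 10346). The median cell had 8409.5 UMIs and 2887.5 detected genes, with 6562 UMIs at ending 1 and 10132 at ending 2. Surface epithelium cells were deeper than the table as a whole, where the median was 3756 UMIs. In all, 27 barcode sequences occurred under both endings, and 1 surface epithelium cell carried such a sequence.

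The ovarian surface epithelium is the sheet of flat to cuboidal cells that covers the ovary and is continuous with the mesothelium of the body cavity. It derives from the coelomic epithelium over the genital ridge, and in the fetal ovary cells of that layer enter the cortex and contribute pregranulosa cells. Mesothelin (MSLN) and uroplakin 3B (UPK3B) are membrane proteins of mesothelial cells, keratin 19 (KRT19) is an intermediate filament protein of simple epithelia, and PDZK1IP1 encodes a small membrane protein of epithelial cells.

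Levels are given as CPM, that is, the UMIs of a gene summed over the cells of a class, per 1000000 UMIs of that class. Surface epithelium cells together held 15187404 UMIs, so that the 3 UMIs taken as the detection limit correspond to 0.198 CPM. For comparison, 1784 granulosa, 3858 stromal, 347 endothelial, 89 macrophage, 275 pericyte, 364 erythroid and 3721 germ cells were chosen by the same form of rule from their own markers, leaving out any cell that met the rules of more than 1 class. The pericyte class was not clean, since LHX2 and EMX2, which are genes of gonadal epithelium, stood there at levels like those of granulosa cells, and it is used only as a further reference. No test was applied to any difference, because cells are not replicates and the surface epithelium was chosen by measured values.

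The 4 genes of the rule are given as a description. KRT19 was present in 99.0% of surface epithelium cells at 1022 CPM, MSLN in 94.2% at 648 CPM, UPK3B in 76.8% at 383 CPM and PDZK1IP1 in 44.5% at 90.9 CPM. In endothelial cells, which should lack these genes, the shares of cells with a UMI were 8.65%, 1.73%, 2.31% and 0.576% in the same order, at a median depth of 5331 UMIs. Surface epithelium cells held 83.9% of all UPK3B UMIs in the table, 82.0% of those of PDZK1IP1 and 77.1% of those of MSLN, but 50.1% of those of KRT19. KRT19 also stood at 196 CPM in granulosa cells.

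All 4 genes were detected in 485 surface epithelium cells, 3 of them in 449 and 2 of them in 306. The thresholds cut through a continuous range of cells. Just inside the limit on UMIs were 66 cells with exactly 4, and 102 cells were outside only because they had 3. Just inside the limit on the share were 58 cells at 5 to under 6 per 10000 UMIs, and 57 cells were outside only because they had 4 to under 5. A further 97 cells, with a median of 17896 UMIs, were outside only because they had a DAZL UMI.

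The label was checked on 20 genes of ovarian surface epithelium and mesothelium that the rule did not use. Of these, 15 were in the table, and KRT8, KRT18, HP, ANXA8 and MUC16 were not used here. BNC1, which encodes the zinc finger protein basonuclin 1, stood at 79.3 CPM in surface epithelium cells against 5.89 in granulosa and 1.87 in stromal cells. KLK11, a secreted serine protease, stood at 54.6 CPM against 0.438 and 0.844. LRRN4, a membrane protein of mesothelial cells, stood at 22.8 CPM against 0.689 and 0.489. All 3 genes were thus low in both comparison classes beside the surface epithelium.

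ITLN1, the lectin intelectin 1, had 45.7 CPM in surface epithelium cells against 1.82 in granulosa and 2.75 in stromal cells. CLDN15, a tight junction protein, had 51.0 CPM against 9.46 and 7.37, and complement C3 had 35.4 CPM against 4.70 and 3.15. WT1, a transcription factor of coelomic epithelium and its descendants, was less particular, at 334 CPM against 228 in granulosa and 59.7 in stromal cells. ALDH1A2, the retinal dehydrogenase that makes retinoic acid in mesothelium, was similar in this respect, at 173 CPM against 98.3 and 6.97.

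Other genes of the list were at or near 0. Calretinin (CALB2) had 0 UMIs in all surface epithelium cells together, PRG4 stood at 0.0658 CPM, KRT7 at 0.658, GPM6A at 1.12 and UPK1B at 2.70 CPM. The cells thus carried BNC1, KLK11, LRRN4, ITLN1 and WT1 of the usual mesothelial genes and lacked detectable CALB2. Over the list, 8 of the 12 genes with enough UMIs were at least 2-fold higher than in granulosa cells and 0 at least 2-fold lower, with a median log2 ratio of 1.33 (all log2 ratios here have 10 CPM added to both levels). Over all genes, 1.77% of 13390 were at least 2-fold higher and 1.42% at least 2-fold lower, with a median of -0.03. Against stromal cells, 10 of 12 were at least 2-fold higher, with a median log2 ratio of 1.80, where 3.96% of all 13695 genes were higher and 3.18% lower. The list had 15 genes in the table, and those with few UMIs over both classes compared were left out of the 12. A mesothelial gene nearly absent from both classes therefore did not enter these counts. Since the cells were also chosen by measured values, the counts are descriptions.

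Surface epithelium cells had their highest correlation of overall profile with granulosa cells. The Pearson correlation of log2 levels across genes was 0.96 with granulosa cells (13386 genes), 0.94 with the pericyte class, 0.92 with stromal cells (13691 genes), 0.85 with endothelial cells, 0.84 with germ cells, 0.74 with macrophages and 0.73 with erythroid cells. Genes are not independent replicates, and all classes share the same libraries. The sums compared ran from 406894 UMIs in macrophages to 22509586 in stromal cells, and the part of size in this order was not tested. Some surface epithelium cells also met the rule of another class, and these stayed in the surface epithelium sum. The granulosa rule was met by 259 of them (20.9%, median 10846 UMIs) and the stromal rule by 136 (10.97%, median 8644.5 UMIs), while 35 met the pericyte rule, 23 the germ cell, 8 the endothelial, 3 the macrophage and 3 the erythroid rule. Whether these were doublets, intermediate cells or cells with free RNA was not tested.

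Markers of the other types were otherwise low in the surface epithelium. The 5 endothelial markers in the table summed to 90.1 CPM against 3820 in endothelial cells, and KDR alone made up 75.6 of it, with EGFL7 at 9.61 CPM. The 6 macrophage markers summed to 9.28 CPM against 8867 in macrophages, and the 5 erythroid markers to 6.12 against 2318 CPM. The 8 stromal markers summed to 306 CPM, between 101 in granulosa and 3510 in stromal cells. The 8 granulosa markers summed to 360 CPM, between 40.7 in stromal and 1056 in granulosa cells. The surface epithelium was therefore low for the endothelial genes other than KDR, the macrophage genes and the erythroid genes. Its sums of granulosa and stromal markers lay between those of the granulosa and stromal classes, but the same markers chose both classes. Cells that met both rules were left out of those classes and not of the surface epithelium. The intermediate order was therefore largely set by the choice of cells.

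Among genes detected in at least 20% of surface epithelium cells, the 25 most above the highest of the other classes were led by CYSTM1, which encodes a small cysteine-rich membrane protein. CYSTM1 stood at 570 CPM (95% Poisson interval 558 to 582), against 59.1 in germ cells, 59.0 in macrophages and 46.2 in granulosa cells. PLLP, the membrane protein plasmolipin, followed with 174 CPM against 20.4 in granulosa cells. Both were also even across the barcode endings, with 543 and 588 CPM for CYSTM1 and 153 and 187 CPM for PLLP.

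Several of the 25 encode proteases, protease inhibitors or other enzymes that act on proteins. Besides KLK11, these included CST6, a cystatin that inhibits cysteine proteases (103 CPM, at most 14.0 in any other class), and HPN, the membrane serine protease hepsin (47.4 CPM, at most 6.14). CPE, which trims peptide hormones, stood at 734 CPM against 195 in granulosa and 208 in stromal cells. LOXL4, a lysyl oxidase that crosslinks matrix, had 37.3 CPM. PADI4, which converts arginine to citrulline in proteins, had 72.8 CPM against 1.503 in granulosa cells, with 4.92 in macrophages as the next highest class.

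Both enzymes of a prostaglandin pathway were among the 25. PTGS1, the cyclooxygenase that makes the prostaglandin precursor, stood at 59.8 CPM against 2.38 in granulosa, 2.58 in stromal and 8.12 in endothelial cells. PTGDS, which makes prostaglandin D2 from it, stood at 3095 CPM against 731 in granulosa and 56.6 in stromal cells, and it was detected in 97.8% of surface epithelium cells. PTGDS was level across the endings (3079 and 3105 CPM), whereas PTGS1 was lower at ending 1 (26.6 CPM) than at ending 2 (80.6 CPM).

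Secreted signals formed another group. KISS1, the precursor of kisspeptin, stood at 1627 CPM against 546 in granulosa and 193 in stromal cells. WNT2B, a WNT ligand, had 83.7 CPM against 16.0 and 6.18, and RSPO1, an amplifier of WNT signaling needed for ovarian determination, had 114 CPM against 32.5 and 3.82. TGFB2, a ligand of the TGF-beta family, had 186 CPM against 54.3 and 25.7. These 4 signals, chosen on sums over both endings, were each above granulosa and stromal cells within both endings, as the plot of levels by barcode ending shows.

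The remaining genes of the 25 were TMEM155 at 125 CPM, NSG1 at 223, MXRA5 at 71.2, POPDC2 at 46.0, ZNF185 at 35.2, FAM110C at 30.6, SLC1A1 at 35.4, CDCP1 at 36.5, MEGF6 at 154 and CHL1 at 78.0 CPM, together with the homeobox gene VENTX at 52.3 CPM. NSG1 encodes a vesicle protein best known from neurons, SLC1A1 a glutamate transporter and CHL1 an adhesion molecule. Within ending 1, 23 of the 25 were at least 2-fold above granulosa cells, and within ending 2 all 25 were. The 25 were chosen on sums of these same cells over both endings, so these counts were largely set by that choice. The lowest within ending 1 was LOXL4, with 12.6 CPM there and a log2 ratio of 0.77, against 52.7 CPM at ending 2.

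Genes of gonadal identity set the surface epithelium apart from stroma and much less from granulosa cells. LHX2, a LIM homeobox factor, stood at 421 CPM against 238 in granulosa and 10.3 in stromal cells, and EMX2, a homeobox factor needed for the gonad to form, at 386 CPM against 342 and 34.3. TBX18, a T-box factor of coelomic epithelium, was at 21.4 CPM against 5.64 and 1.60. GATA4 was as low in the surface epithelium as in granulosa cells, at 2.83 and 2.82 CPM, and the granulosa factor FOXL2, a marker of the granulosa rule, was at 0.461 against 5.76 CPM. Among the 21 gonadal factors, 2 were at least 2-fold higher than in granulosa cells and 0 lower, while 4 were higher and 4 lower than in stroma. For this list and those below, 1.77% of all genes were higher and 1.42% lower than in granulosa cells. Against stroma the shares of all genes were 3.96% and 3.18%. Small counts in short lists are to be read beside these shares and are no result by themselves.

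The factors lower than in stroma included NR2F2, a nuclear receptor of interstitial cells, at 70.9 CPM against 792 in stromal and 65.0 in granulosa cells. TCF21, a mesenchymal factor that was also among the markers of the stromal rule, lay between both classes, at 88.8 CPM against 16.1 in granulosa and 496 in stromal cells. Of the genes of mesenchymal transition, SNAI2 lay between the same classes (45.4 CPM against 8.204 and 195), and vimentin did too (VIM, 1107 CPM against 467 and 2317). Against granulosa cells 2 of the 11 mesenchymal genes were at least 2-fold higher and 0 lower, and against stroma 0 were higher and 6 lower.

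Junction genes were shared with granulosa cells. Of 20 adherens junction and desmosome genes, 9 were at least 2-fold higher than in stroma and 0 lower, whereas 0 were higher than in granulosa cells and 2 lower. Desmoplakin (DSP) stood at 143 CPM against 158 in granulosa and 10.2 in stromal cells, and plakophilin 2 (PKP2) at 94.6 against 79.5 and 12.1 CPM. EPCAM, an adhesion molecule of epithelia, was at 66.0 CPM against 32.5 and 3.33. The 2 genes lower than in granulosa cells were the cadherins CDH2 (98.4 against 219 CPM) and CDH3 (58.3 against 172 CPM), both of which were nevertheless above stroma at 17.3 and 20.5 CPM. Of the keratins other than KRT19, 0 of 5 were past 2-fold either way against either class. Over all genes, 1.77% were higher and 1.42% lower than in granulosa cells, and 3.96% and 3.18% than in stroma. With 5 genes, 0 is near these shares.

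Tight junction and cell surface genes differed more from granulosa cells. CLDN1, a claudin of epithelial barriers, stood at 233 CPM against 106 in granulosa and 44.4 in stromal cells. CGNL1, a junction scaffold, stood at 80.0 CPM against 34.6 and 27.6, and with CLDN15 these were the 3 of 17 genes at least 2-fold higher than in granulosa cells. Among 9 glycocalyx and microvillus genes compared with granulosa cells, 3 were at least 2-fold higher and 0 lower. They were podocalyxin (PODXL, an anti-adhesive sialomucin, 361 CPM against 136), ezrin (EZR, which ties microvilli to actin, 274 against 115) and SLC9A3R1 (the scaffold that joins them, 122 against 22.2). In stromal cells the same genes were at 7.73, 54.6 and 9.33 CPM, so that these 3 were above both classes. The other 6 of the 9 were past 2-fold neither way, and the median log2 ratio was 0.30. RDX and MSN, relatives of EZR, had log2 ratios over granulosa cells of 0.24 and 0.31 without sub-clusters 6 to 9, described below. The list summed to 1117 CPM in the surface epithelium, against 564 in granulosa, 374 in stromal and 1000 in endothelial cells.

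Basement membrane genes were lower than in granulosa cells, with 7 of 22 at least 2-fold lower and 0 higher. LAMB1, a laminin chain, stood at 178 CPM against 369, LAMA4 at 66.4 against 165 and ITGA6, a laminin receptor subunit, at 255 against 547 CPM. The type IV collagen genes COL4A3 and COL4A4 stood at 8.82 against 91.3 and 18.9 against 51.0 CPM, COL4A3 being a marker of the granulosa rule. Against stroma, 5 of the 22 were higher and 3 lower. Nidogen 1 (NID1), which links laminin to collagen, had 6.06 CPM against 156 in stromal cells, and LAMA5, an epithelial laminin chain, had 28.4 CPM against 2.58.

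Of the WNT and R-spondin genes, 5 of 29 were at least 2-fold higher than in granulosa cells and 2 lower, and 7 of 32 were higher and 4 lower than in stroma. Beside RSPO1 and WNT2B, the ligand WNT2 stood at 14.7 CPM against 0.313 in granulosa cells. The secreted inhibitors SFRP1 and WIF1 stood at 1165 CPM against 313 and at 256 CPM against 42.1. Whether these genes were detected in the same single cells was not tested. The pathway's target AXIN2 was at 55.0 CPM against 28.7 in granulosa and 19.4 in stromal cells, and its transcription factor LEF1 at 169 against 91.6 and 19.2. Ligands of the other compartments were low. WNT6 was at 18.04 CPM against 115 in granulosa cells, and WNT4 and RSPO3 were at 1.91 and 2.96 CPM against 40.4 and 83.1 in stromal cells. LGR5, an R-spondin receptor known from ovarian surface epithelium of the mouse, was at 1.25 CPM, and LGR4 at 53.4 CPM.

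In the TGF-beta family, 4 of 30 genes were at least 2-fold higher and 4 lower than in granulosa cells, and 9 of 31 were higher and 3 lower than in stroma. The ligands BMP4 (48.7 against 16.4 CPM) and BMP7 (15.9 against 0.251 CPM) were higher than in granulosa cells, as was TGFB2. The receptor BMPR1B was lower (32.7 against 117 CPM), and so was the inhibin subunit INHA (6.26 against 34.1 CPM). BMP2, the AMH receptor AMHR2 and follistatin (FST) were nearer to granulosa cells, at 99.9 against 86.9, 152 against 228 and 99.1 against 127 CPM, and were above stroma at 15.7, 24.6 and 15.9 CPM. AMH itself was at 0.922 CPM.

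NOTCH and hedgehog genes were lower on balance. Against granulosa cells, 6 of 17 were at least 2-fold lower and 0 higher, and against stroma 6 of 19 were lower and 0 higher. The NOTCH targets HES1 (308 against 1054 CPM in granulosa and 700 in stromal cells), HEY1 (15.4 against 54.1 and 28.6) and HEY2 (7.57 against 74.2 and 10.6) were all below granulosa cells. The ligand JAG1 was at 20.0 CPM against 59.7 and 50.8, and the receptor NOTCH3 at 4.81 against 42.4 and 43.0. The hedgehog target GLI1 was at 4.02 CPM, against 30.0 in stromal cells.

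Among growth factor genes, 3 of 39 were at least 2-fold higher and 4 lower than in granulosa cells, and 7 of 41 were higher and 10 lower than in stroma. IGFBP2, an IGF-binding protein, stood at 1310 CPM against 185 in granulosa and 97.4 in stromal cells, although endothelial cells had 1949 CPM. The growth factor pleiotrophin (PTN) stood at 387 CPM against 136 and 282. KITLG, the ligand of the germ cell receptor KIT, was at 75.1 CPM against 286 in granulosa cells and 23.0 in stroma. IGF2 and PDGFRB were low beside stroma, at 246 against 2039 and 12.6 against 140 CPM. PDGFRA was at 2.90 against 76.4 CPM, but it was among the markers that chose the stromal cells.

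Complement and defence genes were mixed against granulosa cells and mostly higher than in stroma. The list summed to 1467 CPM, against 1296 in granulosa, 457 in stromal and 1202 in endothelial cells, and 1273 in the pericyte class. Against granulosa cells, 5 of 12 were at least 2-fold higher and 2 lower, and against stroma 8 of 12 were higher and 0 lower. SERPING1, the inhibitor of complement C1, stood at 370 CPM against 93.9 in granulosa and 139 in stromal cells, and SLPI, a secreted protease inhibitor, at 25.7 against 1.32 and 0.711. BCAM, a laminin-binding membrane protein that the list also holds, was at 375 CPM against 154 and 22.3. Clusterin (CLU) and WFDC2 were below granulosa cells, at 342 against 773 and 17.1 against 58.4 CPM. LCN2, the lipocalin that binds bacterial siderophores, is among the genes counted as higher against both classes, with 18.2 CPM, but 76.5% of its UMIs came from the 44 cells of a sub-cluster described below. Without sub-clusters 6 to 9 its log2 ratios were 0.43 and 0.37, which are not past 2-fold.

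Steroid receptors were present, while the steroid-making enzymes differed among themselves. Estrogen receptor genes ESR1 and ESR2 stood at 110 and 30.3 CPM, against 19.5 and 2.35 in stroma and 55.2 and 19.4 in granulosa cells. The progesterone receptor PGR stood at 71.0 CPM against 33.1 in granulosa and 25.5 in stromal cells. CYP17A1 and CYP19A1, which make androgens and estrogens, were at 0.593 and 1.32 CPM. HSD17B1, which makes estradiol from estrone, was at 18.2 CPM against 39.6 in granulosa and 40.2 in stromal cells, and the electron carrier FDX1 at 93.8 CPM against 142 and 104. Of 12 genes of this list, 0 were at least 2-fold higher and 2 lower than in granulosa cells.

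Of the retinoid genes, 2 of 19 were at least 2-fold higher and 2 lower than in granulosa cells, and 1 was higher and 6 lower than in stroma. ALDH1A3, 1 of the 2 higher than in granulosa cells, had 11.9 CPM, and 54.4% of its UMIs came from sub-cluster 7, described below. Without sub-clusters 6 to 9 its log2 ratio over granulosa cells was 0.617, which is not past 2-fold. ALDH1A2 was the gene above stroma. RDH10, the enzyme before it, which makes retinal, was lower, at 30.1 CPM against 195 in granulosa and 127 in stromal cells. RARRES2, a retinoid-responsive gene that encodes chemerin, was at 313 CPM against 39.0 and 547.

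Stress and interferon lists were not raised in the surface epithelium. Immediate early and heat shock genes had 0 of 21 at least 2-fold higher against either class, with 3 lower than in granulosa cells and 8 lower than in stroma, among them FOS (2969 against 7101 CPM in stroma) and EGR3 (197 against 616 CPM in granulosa cells). These genes are known to respond to tissue digestion, and their part in other differences was not tested. Of the interferon-response genes, 0 of 24 were past 2-fold against granulosa cells, and 2 were higher and 5 lower than in stroma. Of the 7 Müllerian duct epithelium genes compared, 0 were past 2-fold against either class. Over all genes, 1.77% were higher and 1.42% lower than in granulosa cells. The counts of 0 of 24 and 0 of 7 are near these shares and are no result about the lists.

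**Figure D1:**
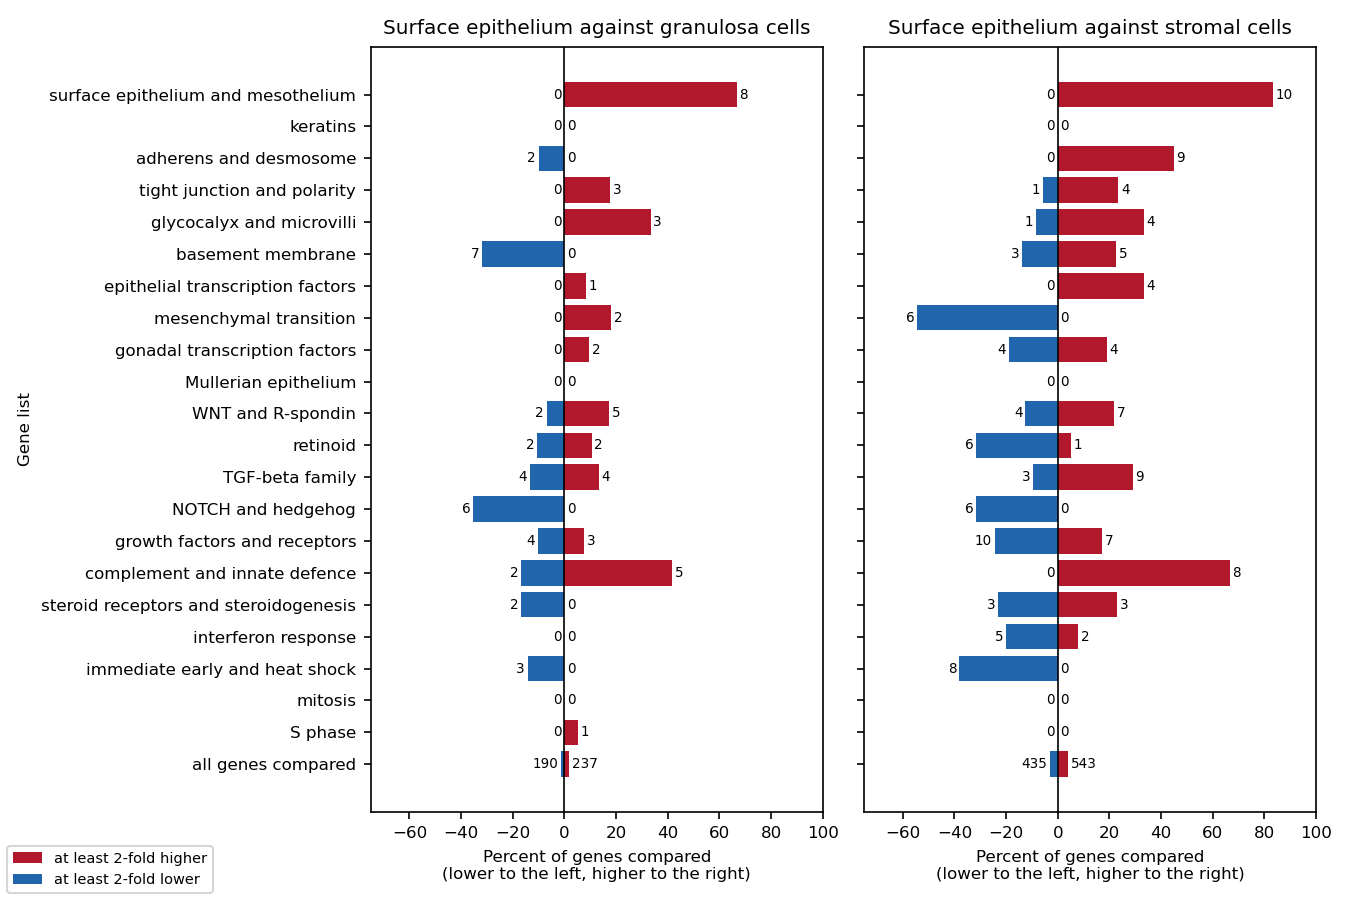
Percent of the genes compared in each list that were at least 2-fold higher (red, to the right) or lower (blue, to the left) in surface epithelium than in granulosa cells (left panel) and stromal cells (right panel), with the number of genes at the end of each bar and all genes compared in the last row. The longest red bars are those of the label check list, with 8 of 12 and 10 of 12 genes, and basement membrane genes are lower than in granulosa cells in 7 of 22.

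The genes furthest below granulosa cells were HOPX (13.2 against 147 CPM), SPARCL1 (86.7 against 591), CBLN2 (6.91 against 84.4), LYPD1 (13.2 against 116) and COL4A3, followed by RDH10, NR1H4, HEY2, PLA2G1B and GRB14. CBLN2, LYPD1 and COL4A3 chose the granulosa cells and are no finding. The genes furthest below stroma were DLK1 (10.0 against 631 CPM), C7 (15.3 against 791), LUM (2.57 against 319), OGN (24.8 against 700) and CXCL12 (13.7 against 429), followed by HTRA3, HIC1, COL1A2, OLFML3 and CLDN11. C7, LUM and OGN were among the markers that chose stromal cells. CXCL12 encodes a chemokine that guides germ cells, and COL1A2 a chain of type I collagen (109 against 1807 CPM).

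Cells with mitosis genes were counted after every cell had been thinned to 2000 UMIs, which left 1198 surface epithelium cells and removed 42 shallower ones. In the surface epithelium 14.8% of cells had at least 2 of the mitosis genes (177 cells, 12.8 to 16.9%), against 8.33% of granulosa (7.08 to 9.72%), 9.90% of stromal (8.92 to 10.9%) and 13.0% of endothelial cells (9.47 to 17.3%). The shares without thinning were 45.6%, 35.4%, 23.0% and 28.0%. The share was higher than in granulosa and stromal cells and nearer to that of endothelial cells. The intervals cover counting error only and cells are not replicates, so this order was not tested. Without cells that met another class's rule, the share in the surface epithelium was 14.3%. By ending, 18.9% of surface epithelium cells at ending 1 and 11.2% at ending 2 had such genes, against 9.75% and 6.33% of granulosa cells and 13.7% and 7.29% of stromal cells. The order of surface epithelium above granulosa and stroma was thus the same within both endings. Cells with at least 2 S phase genes were 22.7% (20.4 to 25.2%) in the surface epithelium and 14.4% (12.8 to 16.2%) in granulosa cells. They were 20.6% (19.2 to 22.0%) in stromal and 22.5% (17.9 to 27.6%) in endothelial cells.

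As bulk levels, none of the 18 mitosis genes passed 2-fold against granulosa or stromal cells, with a median log2 ratio of 0.64 over granulosa cells and -0.02 over stroma. TOP2A, the topoisomerase of dividing cells, stood at 115 CPM against 58.1 and 131. The part of free RNA in these shares was not tested.

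Between the barcode endings, 104 of 12091 genes (0.86%) were at least 2-fold higher at ending 2 within the surface epithelium and 114 (0.943%) at ending 1. Among granulosa cells these shares were 2.33% and 2.46%, and among stromal cells 1.13% and 1.18%. The surface epithelium thus had the lowest share of genes past 2-fold of the 3 classes, which differ in their numbers of cells and UMIs.

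BST2, an interferon-induced antiviral membrane protein, had the largest ratio of ending 2 over ending 1. It stood at 76.5 CPM at ending 1 and 642 at ending 2, with 70.4 and 692 CPM in granulosa and 11.02 and 487 CPM in stromal cells. HBB, a hemoglobin gene not made by epithelium, stood at 1634 CPM at ending 1 and 194 at ending 2, with 1129 and 113 CPM in granulosa and 1637 and 153 in stromal cells. These differences were therefore not particular to the surface epithelium, and erythroid cells held HBB at 489152 CPM. Part of the HBB of surface epithelium at ending 1 came from 1 cell, described below with sub-cluster 6. CRHBP, which binds corticotropin-releasing hormone, had 71.6 and 391 CPM, with 46.7 and 362 in granulosa cells, and NDRG2 and MNDA also moved the same way in granulosa cells.

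ITLN1 and TGM2 differed in the surface epithelium and not to the same extent or in the same direction in the comparison classes. ITLN1 had 7.35 CPM at ending 1 and 69.7 at ending 2, and it was at most 3.78 CPM in granulosa and stromal cells of either ending. TGM2, a transglutaminase, had 24.3 and 106 CPM, with 19.1 and 14.3 in granulosa and 25.4 and 10.3 in stromal cells. SPON2, a matrix protein, had 23.2 and 151 CPM in surface epithelium and moved the same way in stroma, with 173 and 506 CPM. FN1, fibronectin, went the opposite way to granulosa cells, with 283 and 58.8 CPM against 37.8 and 182. IGFBP2, outside these leading genes, had 659 and 1718 CPM, with 62.6 and 297 in granulosa and 104 and 94.2 in stromal cells.

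Higher at ending 1 were KISS1, with 3112 CPM against 696, and the adhesion molecule ALCAM, with 339 against 83.1 CPM. KISS1 was also higher at ending 1 in granulosa cells, at 1092 against 47.5 CPM, and in stroma, at 322 against 133 CPM. C1QTNF7, HS3ST3A1 and HMCN1 were over 3-fold higher at ending 1 (108, 110 and 112 CPM against 22.1, 25.8 and 26.9) and showed the same direction in granulosa cells. CNTN4, a neuronal adhesion molecule, had 85.6 and 17.8 CPM, with 18.8 and 14.0 in granulosa cells. The 2 libraries are 2 animals, so that stage, animal and library cannot be told apart for any of these genes.

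**Figure D2:**
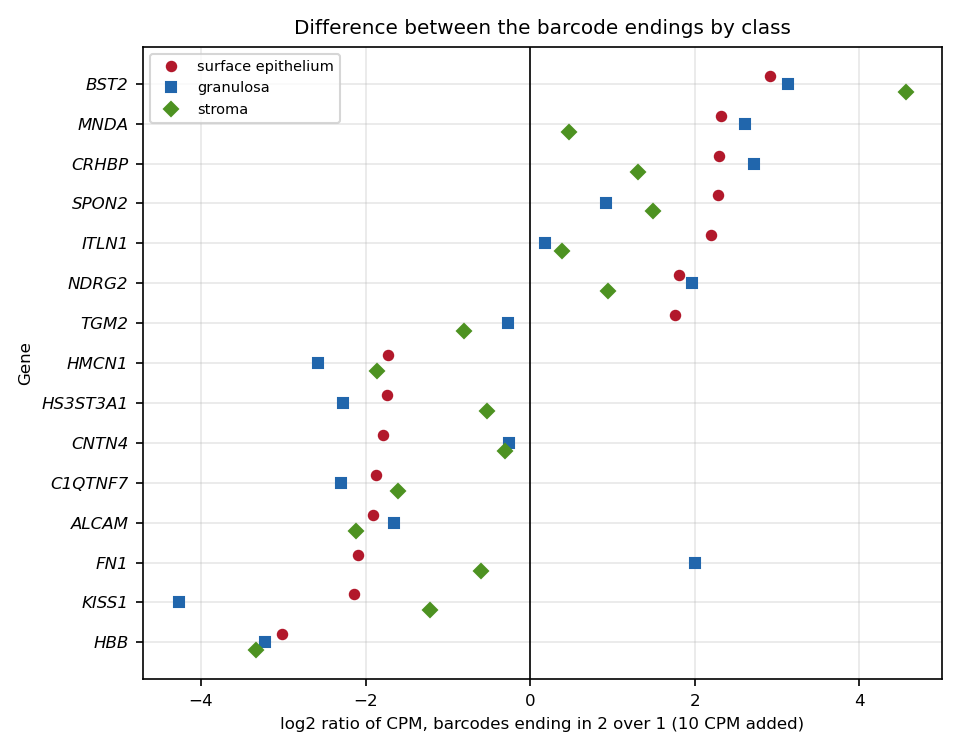
Log2 ratio of the level at barcodes ending in 2 over those ending in 1 (10 CPM added) for genes among the 8 highest in each ending within the surface epithelium, shown for surface epithelium (red circles), granulosa (blue squares) and stromal cells (green diamonds). For BST2 and HBB the 3 classes lie on the same side of 0, while for ITLN1 and TGM2 the granulosa and stromal values lie near 0 or below it, and FN1 has opposite signs in surface epithelium and granulosa cells.

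The number of rule genes detected in a cell went with other genes. In cells with 2, 3 and 4 of the rule genes, KLK11 stood at 14.7, 43.2 and 73.9 CPM, BNC1 at 28.4, 70.1 and 101 CPM, and C3 at 5.16, 26.5 and 50.1 CPM. ITLN1 followed with 6.63, 25.5 and 69.3 CPM. Several granulosa markers ran the other way, with SOST at 145, 73.8 and 33.7 CPM, CRYM at 106, 54.5 and 32.8 CPM and COL4A3 at 26.5, 6.03 and 4.41 CPM, but INHBB did not, at 73.3, 101 and 68.6 CPM. Stromal markers were mixed, with TCF21 at 39.4, 83.3 and 108 CPM, POSTN at 36.5, 62.7 and 52.9 CPM and LUM at 4.05, 2.55 and 2.08 CPM. WT1 was nearly level, at 300.3, 341 and 341 CPM. The median depths of these cells were 6846.5, 6391 and 13106 UMIs, and the part of depth in these levels was not tested.

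Clustering of the 1240 cells on 2000 variable genes without the rule genes and DAZL gave 9 sub-clusters. They followed the barcode endings. Sub-clusters 1 and 3 held 531 cells of ending 2 out of 532, and sub-clusters 2, 4 and 8 held 470 cells of ending 1 out of 471. Only sub-clusters 5, 7 and 9 held at least 10 cells of each ending. Their leading genes are a description, since the same cells formed them.

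Sub-cluster 1 (296 cells) was led by PTPRQ, TGM2, MGP, CRHBP and IGFBP6, and had the highest KLK11 (89.1 CPM) and BNC1 (113 CPM) of the 9. Sub-clusters 2 (257 cells) and 4 (175 cells) both had high KISS1, at 4006 and 3317 CPM. Sub-cluster 2 was also led by HBB at 2795 CPM and had a median of 4486 UMIs, while sub-cluster 4 was led by CNTN4, C1QTNF7 and ALCAM and had a median of 13410. Sub-cluster 5 (114 cells, 66 of ending 1 and 48 of ending 2) was led by UBE2C, TOP2A, ASPM and MKI67, with TOP2A at 641 CPM against at most 82.9 in any other sub-cluster. The cells of this sub-cluster came from both endings, and LHX2 stood at 505 CPM in them.

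Sub-cluster 3 (236 cells) leaned toward granulosa cells. UPK3B was at 60.0 CPM there, against 542 in sub-cluster 1, and SPARCL1 (243 CPM), GRB14 (100 CPM) and RGS5, all higher in granulosa cells than in the surface epithelium, were among its leading genes, so that these too went against the label. The granulosa rule was met by 106 of its cells (44.9%). Sub-cluster 8 (39 cells, all of ending 1) went further, with UPK3B at 50.5 CPM, HES1 at 1781, SOST at 386 and NR1H4 at 173 CPM, and 30 of its cells met the granulosa rule. LHX2 and EMX2 stood at 349 and 409 CPM in sub-cluster 3 and at 270 CPM each in sub-cluster 8.

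Sub-cluster 9 (26 cells) was led by the stromal genes C7 (450 CPM), DLK1 (226 CPM) and OGN (294 CPM), and all 26 cells met the stromal rule. Sub-cluster 6 (53 cells, 1 of ending 1 and 52 of ending 2) had a median of 40.3% mitochondrial UMIs and 2084 UMIs in all. HBB stood at 36664 CPM over its summed UMIs and was detected in 50.9% of its cells. That sum exceeds the HBB of all surface epithelium cells of ending 2 together, so most of it came from the 1 cell of ending 1. The leading genes of sub-clusters 8 and 9 thus went against the surface epithelium label, and those of sub-cluster 6 were mostly mitochondrial genes.

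Sub-cluster 7 was of another kind, with 44 cells of which 25 were at ending 1 and 19 at ending 2. It was led by LCN2 (408 CPM), POSTN (747), CALY (272), EGFL6 (191), PAX8 (158), ALDH1A1 (661), WFDC2 (275) and ANXA1 (300.5 CPM). The genes of the rule were high, with MSLN at 1329 CPM, UPK3B at 455 and KRT19 at 1159.6 CPM, and mesothelial genes that the rule did not use were among the highest of the 9, with ITLN1 at 420, C3 at 277 and LRRN4 at 94.4 CPM. LHX2 was near its limit at 7.71 CPM, with 4 UMIs in 3 of the 44 cells, against 86.0% of the other surface epithelium cells. KISS1 was at 27.0 CPM against at least 418 in every other sub-cluster, CYSTM1 at 84.8 CPM and LHX9 at 0, while EMX2 was at 96.3 and WT1 at 304 CPM. These cells therefore combined mesothelial genes and WT1 with little of the LHX2 and KISS1 found in the other surface epithelium cells.

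**Figure D3:**
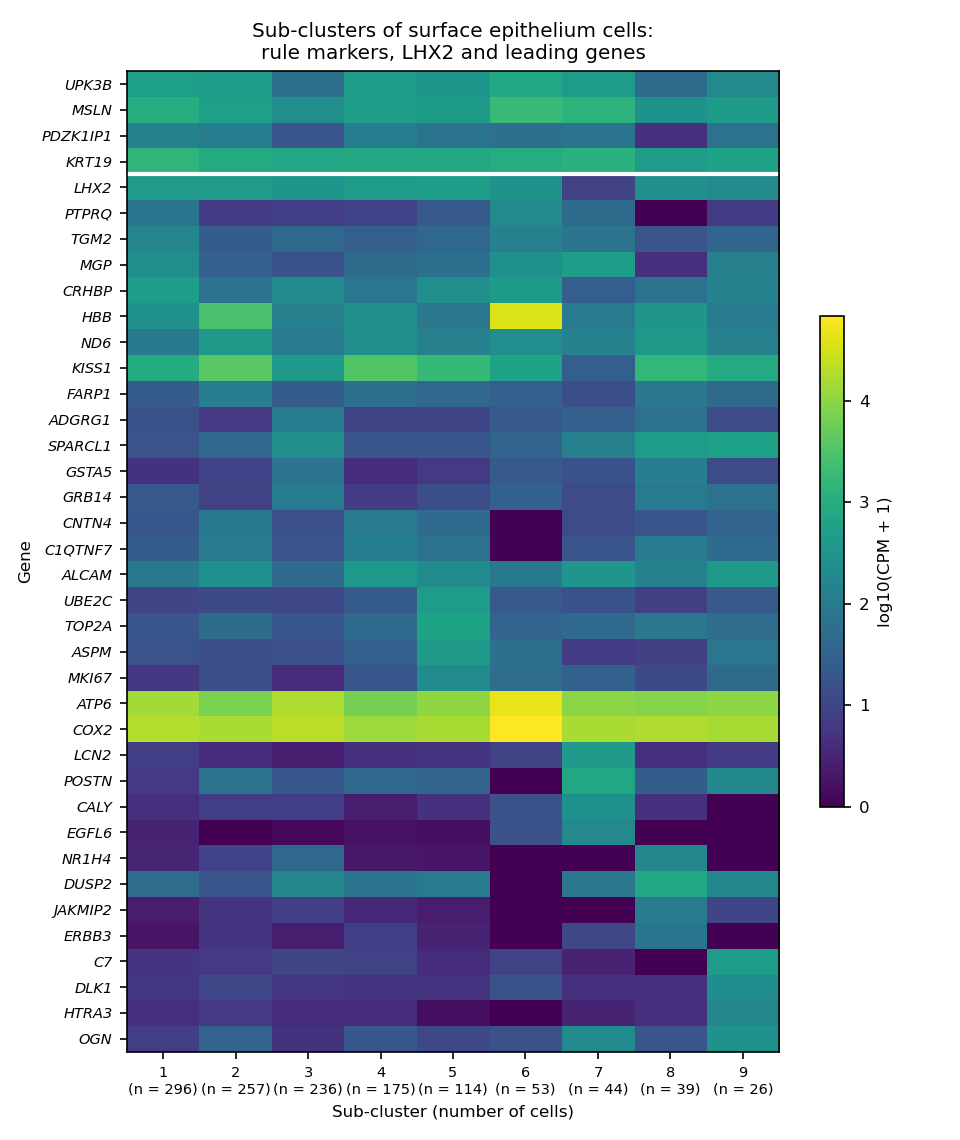
Level of the 4 rule genes and LHX2 (top) and of leading genes of each sub-cluster (below), as log10 of CPM plus 1, in the 9 sub-clusters of surface epithelium cells with their numbers of cells. Sub-cluster 7 is dark for LHX2 and KISS1 and bright for LCN2, POSTN and MSLN, sub-cluster 5 is bright for the mitosis genes, and sub-clusters 3 and 8 are the dimmest for UPK3B and PDZK1IP1.

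The low LHX2 of sub-cluster 7 was seen in both endings, at 5.23 CPM (0.133 to 29.2) at ending 1 and 9.14 CPM (1.89 at the lower bound) at ending 2, against 442 and 407 CPM over all surface epithelium cells. ALDH1A1 stood at 424 and 799 CPM there and PAX8, a paired box factor of Müllerian and kidney epithelium, at 204 and 131 CPM. ITLN1 (73.3 and 622 CPM), LCN2 (89.0 and 594 CPM) and WFDC2 (607 and 82.3 CPM) were uneven between the endings. Sub-cluster 7 held 82 of the 85 PAX8 UMIs of the surface epithelium and 66.1% of the 124 in the whole table.

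PAX8 was confined to 15 of the 44 cells, a split looked at after the values had been seen. These 15 cells, 5 of ending 1 and 10 of ending 2, had a median of 12484 UMIs, against 3333 in the other 29. LCN2 and WFDC2 went with PAX8, with 210 of 212 and 141 of 143 UMIs in those cells, from 9 and 7 of the 15. SOX17, a factor of Müllerian and other epithelia, had 15 UMIs there, all from 2 cells. ITLN1 and C3 were in both sets, with ITLN1 in 7 of 15 and 15 of 29 cells and C3 in 7 of 15 and 19 of 29 cells, and LHX2 was in 1 of 15 and 2 of 29. The low LHX2 was thus common to both sets, while LCN2 and WFDC2 were not. The stromal rule was met by 29 of the 44 cells, and the 8 stromal markers summed to 1159.6 CPM, against 1664 in sub-cluster 9 and 306 over all surface epithelium cells. POSTN, OGN (208 CPM), WFDC1 (137 CPM) and COL1A2 (713 CPM) were high, whereas C7 and DLK1 were at 1.93 and 3.85 CPM, against 450 and 226 in sub-cluster 9.

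With sub-clusters 6 to 9 left out, 1078 cells remained. LCN2 fell from 18.2 to 4.38 CPM, WFDC2 from 17.1 to 7.83, ALDH1A1 from 53.5 to 30.1 and ITLN1 from 45.7 to 33.2 CPM. All of the 25 genes most above the other classes stayed more than 2-fold above the highest other class, with log2 ratios from 1.57 to 3.16. LCN2 and WFDC2 in the surface epithelium therefore rested largely on sub-cluster 7. The 25 leading genes were chosen on sums to which sub-clusters 6 to 9 gave few UMIs, so that they stayed high was largely set by that choice. The granulosa-leaning sub-cluster 3 was not left out.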

How the data were processed

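Single-cell libraries of 1 E84 and 1 E116 fetal ovary sample were processed by the authors with Cell Ranger 3.0.2, per the labels, with reads counted on the Macaca_fascicularis_5.0 genome, and deposited as 1 table of UMI counts (18446 genes by 20967 cells), of which 3213 genes have no symbol. The deposited counts were whole numbers, not normalized, and were not filtered at the upper gene limit of 3000 of the study, since 4675 cells exceeded it. The cells, lists and named genes were chosen with earlier results of these data known. Summed counts were expressed as CPM with exact Poisson 95% intervals, log2 ratios had 10 CPM added, and genes needed 20 UMIs over the classes compared. Calls were at 2-fold, without tests. Depth-sensitive shares used cells thinned to 2000 UMIs. Doublets were not removed by a caller. Cells that met the rules of several classes were left out as an alternative. Sub-clusters came from Seurat 5.3.0 (R 4.3.3) with 18 principal components, 20 neighbours and resolution 0.6, and sums from numpy 2.4.6 and scipy 1.17.1. Named genes were the rule genes, the 25 highest over all other classes, the 10 lowest against granulosa and against stroma (over 50 CPM there), the 8 highest in each barcode ending, the 8 leading each sub-cluster, and list members over 20 CPM or past 2-fold. The scripts were tested on simulated counts. A few genes that this rule names are not reported here.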

Additional observations from a re-analysis of the deposited data

How the results depend on the processing

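The number of surface epithelium cells was 965 with at least 8 UMIs of the rule genes, 655 among cells of 200 to 3000 genes, 673 with at most 10% mitochondrial UMIs, 818 without cells that met another class's rule and 1078 without sub-clusters 6 to 9, the last an alternative chosen after seeing the data. The share of cells with at least 2 mitosis genes was 12.7% among cells of 200 to 3000 genes, 18.9% at ending 1, 11.4% at ending 2 (another thinning draw), 45.6% without thinning and 17.5% without sub-clusters 6 to 9. The median log2 ratio of the label check list over stroma was 2.22 at ending 2. With 1 CPM added, 690 genes were higher and 571 lower than in granulosa cells. The cause of these shifts was not tested beyond what each setting removes. The other 33 values moved by less than the limits set for them, which were wide, and 0 changed direction. Among them, the median log2 ratio of the label check list over granulosa cells was 1.33 in the main setting. It was 1.90 among cells of 200 to 3000 genes and 1.04 at ending 1. Genes at least 2-fold higher than in granulosa cells were 237 in the main setting and 310 at ending 2. Resolutions 0.3 and 1.0 gave 6 and 11 sub-clusters, and the 44 cells of sub-cluster 7 stayed together at both, joined at 0.3 by the 26 of sub-cluster 9. Sub-cluster 3 did not stay together. At 0.3, 191 of its cells (80.9%) were in 1 cluster with all 296 cells of sub-cluster 1. At 1.0 its cells split into sets of 83, 108 and 45. The separation of sub-clusters 1 and 3 thus depended on the resolution. No paired analysis was possible because each stage has 1 library and the cells carry no sample label. Depth limits a level near 0.198 CPM, and differences between stages could not be described.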
